A study of Mus musculus with 228 samples.

Results

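The SMC5/6 complex genes are 6 of the 46331 named gene rows of the count table: Smc6, Smc5, Nsmce1, Nsmce2, Nsmce3 (also called Ndnl2) and Nsmce4a. They were chosen by name. Smc6 was taken because its level in chow-fed livers went up with the daily hours of light, and the other 5 because their products are subunits of the same complex. The chow liver values of Smc6 are therefore given as a description without a test of its own, while the partners, the antibiotics livers and the other tissues were not used in that choice.

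SMC5 and SMC6 are long coiled-coil ATPases that join head and tail into a ring, one of the 3 SMC complexes of the nucleus beside cohesin and condensin. NSMCE1, NSMCE3 and NSMCE4A sit at the ATPase heads, where NSMCE3 and NSMCE4A bridge them and NSMCE1 carries a RING domain of the ubiquitin ligase kind, and NSMCE2 is a SUMO ligase docked on the arm of SMC5. The complex is known for homologous recombination repair, for replication through obstacles and, in hepatocytes, for silencing hepatitis B virus episomes, which the viral X protein relieves by having SMC5/6 degraded.

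RNA sequencing covered 10 tissues of C57BL/6N mice, aged 10 weeks at the start, that were housed singly for 42 days, 24 mice to each diet and cycle, under 0, 8, 12, 16 or 24 h of light a day (LD0/24, LD8/16, LD12/12, LD16/8 and LD24/0). One arm ate sterilised chow and drank plain sterile water, and the other ate the same chow with a mixture of broad-spectrum antibiotics in its water. Liver had 6 libraries for each diet and cycle, hypothalamus and colon had 3 for each, and inguinal fat, ileum, jejunum, cecum, spleen, mammary gland and thymus had 3 for each cycle from chow mice alone. Of the 228 libraries 224 were used here. Left out were antibiotics liver LD0/24 replicate 1, which held 0 counts on chromosomes 18, 19 and X, and 3 surplus cecum columns, labelled with different cycles, that were equal in all rows. All 6 genes passed the filter on low counts in all 10 tissues.

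Several libraries stood apart. Each liver library held between 61799623 and 159080558 counts. Over 20% of the counts came from mitochondrial genes in 5 of the 30 chow livers (LD0/24 replicates 1 and 4, LD8/16 replicate 3, LD12/12 replicate 2 and LD24/0 replicate 5, 30.4 to 62.6%), whereas the 29 antibiotics livers lay between 5.08 and 7.62%. Chow livers also differed in how their counts were spread over GC-poor and GC-rich transcripts. This was measured as a GC slope, the change in a library's log2 deviation from the median liver library per 10 percentage points of transcript GC content, with the 6 genes left out of its calculation. The slope was over 0.2 in 5 chow livers (LD0/24 replicates 2, 5 and 6, LD12/12 replicate 5 and LD16/8 replicate 6, 0.281 to 0.624) and in 0 antibiotics livers. Its median was 0.266 in chow LD0/24, 0.101 in LD8/16, 0.0769 in LD12/12, -0.0062 in LD16/8 and -0.0482 in LD24/0, so it moved with hours of light. Summed hepatocyte markers (Alb, Apoa1, Ttr, Cps1, Serpina1a and Tat) were high in all 10 liver groups, with medians from 132300 to 190400 CPM (a library's counts scaled to the usual common total, here taken over nuclear genes). No gene of the 8 lists of liver cell type markers passed the test over hours of light in chow livers described below, with median log2 trends from -0.71 (red blood cell) to 0.76 (neutrophil). In bulk tissue, fewer cells of a type and less RNA per cell cannot be told apart.

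The transcripts of the 6 genes differ in base composition, and 3 stretches are printed as examples of their coding parts. Each is the middle 90 bases of the coding part of the longest coding transcript in GENCODE vM21 (build GRCm38), 5′ to 3′, with G and C in capitals. The coding part of Smc6 (chromosome 12, transcript Smc6-201, 3291 bases) is 38.8% GC, that of Smc5 (chromosome 19, Smc5-201, 3303 bases) 42.7% and that of Nsmce3 (chromosome 7, Nsmce3-201, 837 bases) 60.2%. Bases 1600 to 1689 of Smc6, 1606 to 1695 of Smc5 and 373 to 462 of Nsmce3 read:
Smc6: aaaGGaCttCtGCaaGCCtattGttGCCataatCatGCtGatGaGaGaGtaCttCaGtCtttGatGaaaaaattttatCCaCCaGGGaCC
Smc5: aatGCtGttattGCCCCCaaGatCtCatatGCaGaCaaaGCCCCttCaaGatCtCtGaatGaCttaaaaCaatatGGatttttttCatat
Nsmce3: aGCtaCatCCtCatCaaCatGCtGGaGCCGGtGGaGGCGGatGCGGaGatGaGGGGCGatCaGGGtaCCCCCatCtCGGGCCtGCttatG
The Smc6 window is 40% GC, the Smc5 window 35.6% and the Nsmce3 window 61.1%. Over whole transcripts, untranslated parts included, GC was 40.4% for Smc6, 38.7% for Smc5, 40.5% for Nsmce4a (chromosome 7), 44.7% for Nsmce3, 45.2% for Nsmce2 (chromosome 15) and 52.7% for Nsmce1 (chromosome 7). The levels below are read against these whole-transcript values, by which Nsmce3 and Nsmce4a lie between 40 and 45% as Smc6 does.

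Smc6, the ATPase with which the description starts, had higher group means at longer light in chow livers, and in antibiotics livers no trend passed the test. Levels are given as CPM of nuclear genes, which leave out mitochondrial genes and are not corrected for gene length, so they are compared within a gene. In chow livers the lowest, median and highest of 6 libraries were 4.57, 7.10 and 13.3 CPM in LD0/24, 7.99, 9.65 and 12.6 in LD8/16, 5.14, 11.9 and 20.4 in LD12/12, 5.08, 13.8 and 21.5 in LD16/8, and 11.5, 19.0 and 20.2 in LD24/0. The group means were 7.63 ± 3.17, 10.0 ± 1.95, 12.3 ± 5.02, 14.7 ± 5.99 and 18.2 ± 3.29 CPM (SD, n = 6 each). Neighbouring groups overlapped, and the libraries under 7 CPM were the 5 with a GC slope over 0.2.

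In antibiotics livers Smc6 was at 21.3, 25.65, 22.8, 20.5 and 25.6 CPM in the 5 libraries of LD0/24. The lowest, median and highest of 6 were 18.3, 21.8 and 23.9 CPM in LD8/16, 16.2, 20.2 and 24.6 in LD12/12, 17.3, 19.4 and 21.5 in LD16/8, and 17.8, 19.5 and 28.2 in LD24/0. All 5 groups overlapped. Of the 30 chow livers 8 reached the lowest antibiotics value of 16.2 CPM, 5 of them in LD24/0.

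The fitted light trend, the log2 change from 0 to 24 h along a line through the 5 group means, was 1.24 ± 0.19 (SE) for Smc6 in chow livers. In antibiotics livers it was -0.20 ± 0.19, with a 95% interval from -0.57 to 0.18 (edgeR quasi-likelihood test, Benjamini-Hochberg adjusted p = 1 over 19234 genes). None of the 6 genes passed in the antibiotics livers, where 0% of all genes passed (622 genes had an unadjusted p under 0.05, none of them among the 6; DESeq2 and limma-voom called 0 of the 6 as well). The trend of Smc6 in antibiotics minus that in chow livers was -1.44 ± 0.27, which rests on the chow values that chose the gene.

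Of the 5 partners none passed the test over hours of light in chow livers, where 2.56% of all genes passed, 2.43% upward (467 genes) and 0.13% downward (25 genes). Those calls came from the fit of both diets together, and with the chow livers fitted alone 0 of 17972 genes passed (1577 had an unadjusted p under 0.05). None of the 5 had an unadjusted p under 0.05 in edgeR, DESeq2 called 0 of them, and limma-voom called 0 with 1, Smc5, under 0.05 unadjusted.

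Smc5, the other ATPase of the ring, split into levels that went with the mitochondrial share. The lowest, median and highest of 6 chow livers were 2.51, 5.58 and 38.9 CPM in LD0/24, 4.79, 7.59 and 33.2 in LD8/16, 3.70, 8.77 and 44.4 in LD12/12, 2.77, 11.3 and 14.4 in LD16/8, and 11.8, 14.4 and 34.0 in LD24/0. The 5 chow livers over 20% mitochondrial held the 5 highest values, 17.4 to 44.4 CPM, and the other 25 lay between 2.51 and 15.3 with no overlap. Across all 30 the trend was 0.46 ± 0.39 with an interval from -0.31 to 1.23 (edgeR adjusted p = 0.678).

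The part of the mitochondrial share in these levels was not tested. Without those 5 libraries Smc5 rose with hours of light. Its means in the remaining chow livers were 4.12 ± 2.17 CPM (SD, n = 4) in LD0/24, 7.06 ± 1.89 (n = 5) in LD8/16, 8.40 ± 3.92 (n = 5) in LD12/12, 10.8 ± 4.27 (n = 6) in LD16/8 and 13.6 ± 1.52 (n = 5) in LD24/0, and the LD0/24 and LD24/0 libraries did not overlap. Its trend was then 1.61 ± 0.26 (edgeR adjusted p = 0.000107), beside 1.52 ± 0.21 for Smc6. With the GC slope as covariate in the same libraries it was 0.46 ± 0.20 and did not pass (edgeR adjusted p = 1), and 3 of the 4 remaining LD0/24 libraries had a slope over 0.2. Without the covariate its trend in antibiotics minus chow livers was -1.62 ± 0.34 (edgeR adjusted p = 0.00454). In the same 25 chow livers 8.63% of all genes passed over hours of light and 4.94% passed for the difference between diets, so calls were more common among all genes too. In the antibiotics livers Smc5 lay between 9.00 and 19.1 CPM, with a trend of -0.01 ± 0.41 (edgeR adjusted p = 1). That SE comes from the fit of all libraries of both diets together. The SD of Smc5 was 10.7 CPM over all 30 chow livers and 2.09 over the 29 antibiotics livers.

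The 4 non-SMC elements showed no such steps. Nsmce1, the RING subunit, lay between 7.05 and 14.0 CPM over the 30 chow livers with a trend of -0.08 ± 0.17 (edgeR adjusted p = 0.895). Nsmce2, the SUMO ligase, lay between 1.87 and 7.14 CPM with a trend of 0.04 ± 0.20 (adjusted p = 0.967 from the same edgeR fit). Nsmce3 and Nsmce4a, the bridge over the ATPase heads, lay between 13.0 and 23.7 CPM and between 19.65 and 37.7 CPM.

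Their edgeR trends were 0.04 ± 0.12 for Nsmce3 and 0.01 ± 0.12 for Nsmce4a. The intervals of these 4 genes reached at most 0.43 upward, for Nsmce2, and -0.41 downward, for Nsmce1, and every group overlapped every other for each of the 4. The difference between diets in the trend passed for 0 of the 5 partners in edgeR, where 0.0052% of all genes passed, that is, Smc6 alone, whose chow values had chosen it. No partner had an unadjusted p under 0.05 for it in edgeR or DESeq2, and limma-voom had 1, Smc5, which it did not call.

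Partner levels were also compared with Smc6 library by library, on log2 CPM with TMM scaling. Over all 30 chow livers Smc5 and Smc6 had Pearson's r = 0.566 and Spearman's rho = 0.563 (permutation p = 0.00125 and 0.0015, adjusted 0.0125 and 0.015 over 10 pairs). Without the 2 libraries farthest from the Smc6 median r was 0.425, and the 5 high-mitochondrial libraries form a cluster of their own in Smc5. Over the 25 chow livers at or under 20% mitochondrial, a cut that leaves out the 5 highest Smc5 values, r was 0.966 and rho 0.942. For both, permutation p was 1e-05, the smallest that 100000 resamples can give (adjusted p = 0.0001), and r was 0.954 without the 2 farthest libraries. Libraries were shuffled across cycles, so a movement with hours of light that both genes share enters these p-values. The Smc6 values here are those that chose the gene.

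No other partner reached that. Nsmce2 had r = 0.388 over the 25 libraries (permutation p = 0.0555, adjusted 0.185), Nsmce3 0.214, Nsmce4a -0.265 and Nsmce1 -0.275, and the adjusted p of r was at least 0.185 for these 4. Over all 30 chow livers Nsmce2 had rho = 0.467 (permutation p = 0.00968, adjusted 0.0484), while its r was 0.215 (adjusted 0.443). Over the 29 antibiotics livers Smc5 and Smc6 had r = 0.447 and rho = 0.369 (permutation p = 0.0158 and 0.0511, adjusted 0.0791 and 0.137), and r was 0.461 without the 2 libraries farthest from the median. Around the mean of each cycle r was 0.504 in all 30 chow livers and 0.518 in the antibiotics livers (permutation p = 0.00484 and 0.00425, adjusted p = 0.0242 for both), while rho, at 0.502 and 0.382, had adjusted p = 0.0566 and 0.213. Without the 5 chow livers with a GC slope over 0.2, r was 0.136 and rho 0.245 (permutation p = 0.514 and 0.2355). Between residuals on the slope over the 30 chow livers, r was 0.0618 and rho 0.475 (permutation p = 0.747 and 0.00875, adjusted 0.747 and 0.0875). None of these passed. Both checks keep the 5 high-mitochondrial libraries, and neither was run on the other 25. They therefore cannot show how far the relation in those 25 goes with the GC slope.

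**Figure D1:**
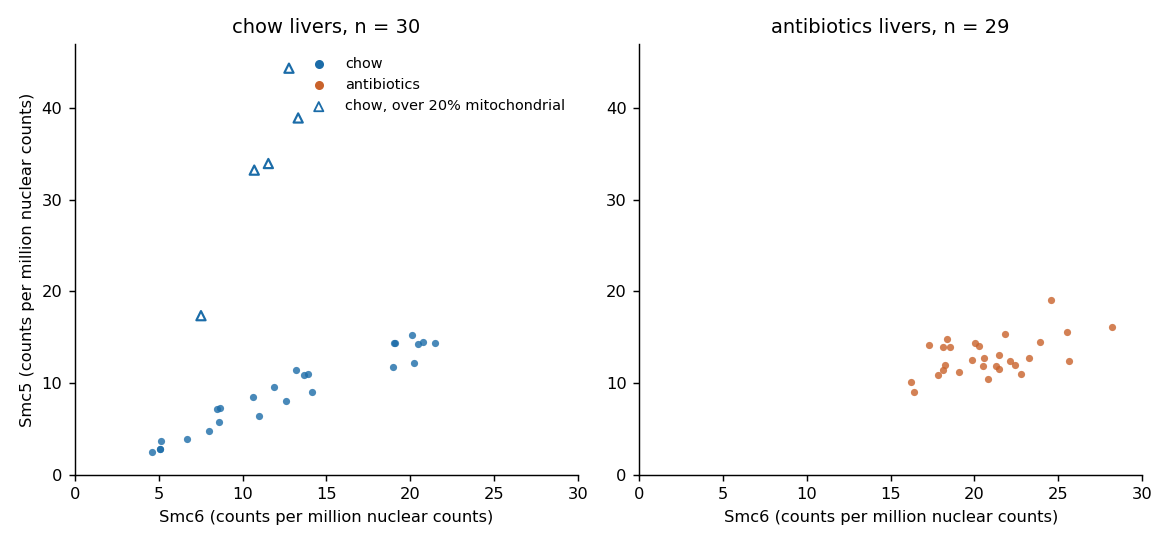
Smc5 against Smc6 (both in CPM of nuclear genes) with 1 point per liver library, chow on the left and antibiotics on the right. The 25 chow livers drawn as dots lie along a line from 2.51 to 15.3 in Smc5, and the 5 triangles, with over 20% mitochondrial counts, lie above it between 17.4 and 44.4.

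Among all 12788 nuclear genes at 1 CPM or more, the median r with Smc6 over those 25 chow livers was -0.101, and 0.0547% of the genes reached the r of Smc5. Over the 30 chow livers the 10 genes most like Smc6 had r between 0.913 and 0.940 and were Yes1, Rb1cc1, Pkn2, Gcc2, Gm38561, Esf1, Rabgap1l, Chm, Pcm1 and Epc2. Yes1, a Src family kinase, led with r = 0.940, followed by Rb1cc1, an autophagy initiation factor, with 0.933. All share libraries and depth with Smc6, and no test is attached to the ranking. The median transcript GC of those with an annotated transcript was 41.1%, against 49.6% over all genes compared, and their median length was 6207 bases against 3237.

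Smc6 ran closely with the GC slope of the chow liver libraries. Pearson's r was -0.872 and Spearman's rho -0.911 over 30 libraries, given without a test because these are the values that chose the gene, r was -0.858 without the 2 libraries of most extreme slope, and r was -0.86 around the cycle means. Smc5 had r = -0.622 (permutation p = 0.00026, adjusted 0.00156 over 12), and Nsmce1, Nsmce2, Nsmce3 and Nsmce4a had 0.262, -0.123, -0.125 and 0.128. In the antibiotics livers, whose slopes spanned only -0.127 to 0.0297, Smc6 had r = 0.00681 with the slope, Nsmce1 -0.507 (rho = -0.368, permutation p = 0.00468 and 0.0501, adjusted 0.0187 over 12 for r, and r = -0.369 without the 2 most extreme slopes) and Nsmce2 -0.425 (permutation p = 0.0213, adjusted 0.0638). The r of Smc6 with the mitochondrial share was -0.0823 in chow livers, and with albumin -0.324.

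**Figure D2:**
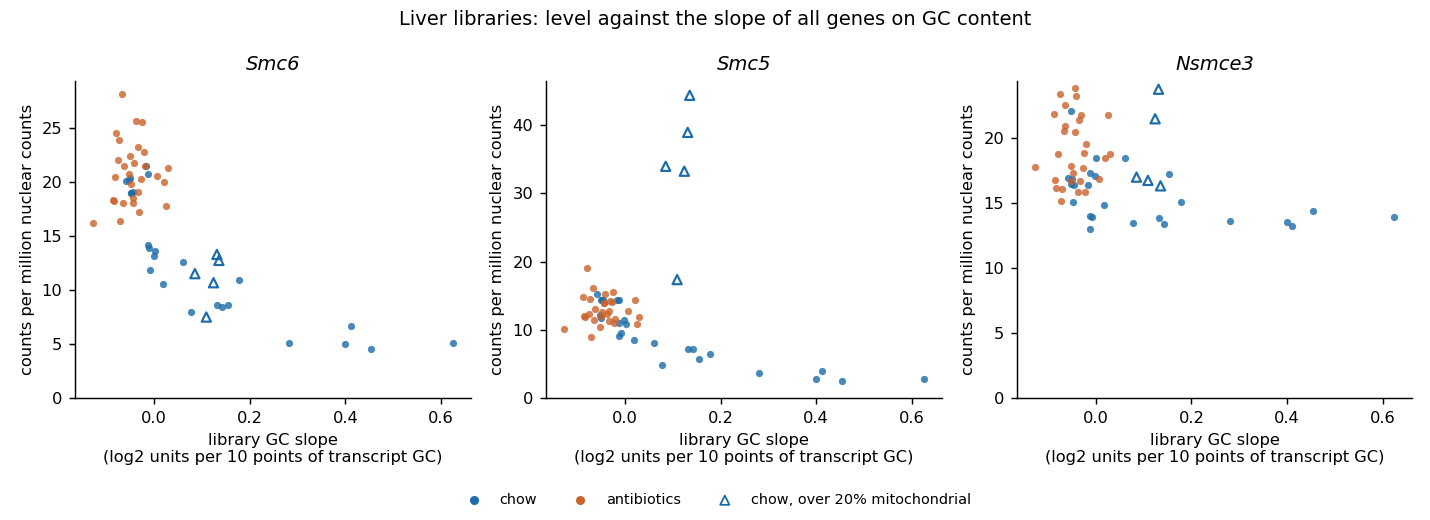
Level of Smc6, Smc5 and Nsmce3 (CPM of nuclear genes) against the GC slope of each liver library, chow and antibiotics, 1 point per library. Smc6 lies between 4.57 and 6.70 in the 5 chow livers with a slope over 0.2 and between 7.51 and 21.5 in the other 25, while Nsmce3 lies between 13.2 and 14.4 in those 5 and between 13.0 and 23.7 in the other 25.

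With the GC slope of each library as a covariate, an alternative chosen after seeing the data, the chow trend of Smc6 was 0.52 ± 0.15 in place of 1.24, and that of Smc5 -0.18 ± 0.39. In that fit 0% of all genes passed over hours of light in chow livers (964 had an unadjusted p under 0.05). Leaving out the 5 chow livers with a slope over 0.2 gave a trend of 1.06 ± 0.17 for Smc6 and -0.18 ± 0.36 for Smc5. Only 1 of the 6 chow LD0/24 libraries was below both limits, on slope and on mitochondrial share. With the high-mitochondrial libraries left out and the slope as covariate, the trend of Smc6 was 0.57 ± 0.17. As the slope itself moved with hours of light, the part of the trend that both share cannot be told apart.

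Sorted by transcript GC, the chow trends of all genes with a GC value restate the GC slope, which was calculated largely from the same genes. Of 981 genes with a transcript GC under 40% the chow trend passed upward for 17.1%, of 3341 between 40 and 45%, where Smc6 lies, for 7.21%, and of 3769 at 55% or more for 0.0796%. The median trend in those 3 classes was 0.42, 0.23 and -0.17 in chow livers, and -0.02, -0.02 and 0.02 in antibiotics livers. Nsmce3 and Nsmce4a, which also lie between 40 and 45%, had chow trends of 0.04 and 0.01.

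**Figure D3:**
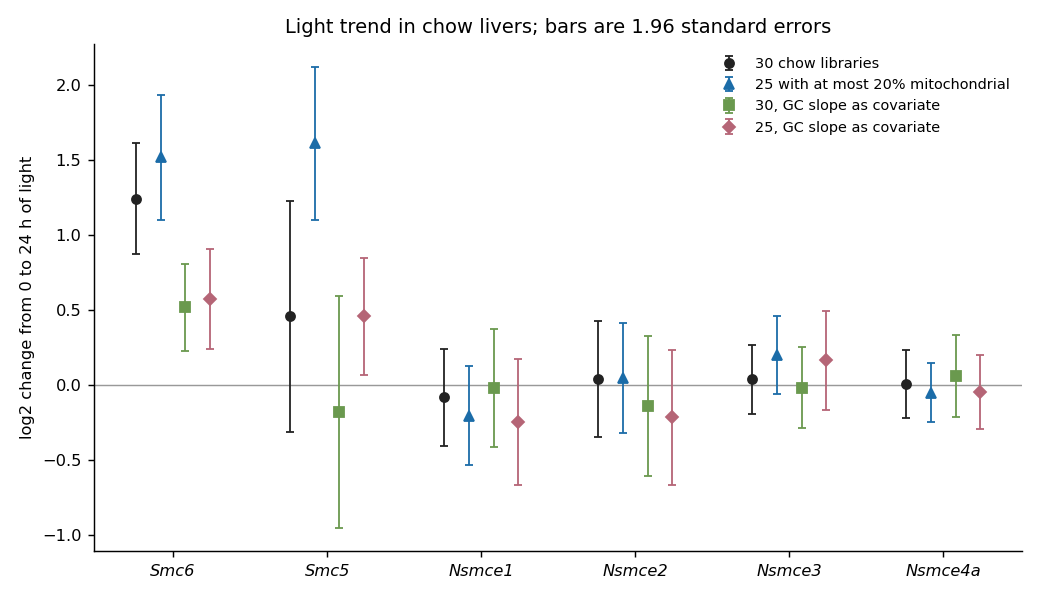
Light trend in chow livers (log2 change from 0 to 24 h of light) of the 6 genes in 4 fits, with bars for 95% intervals. Smc6 goes from 1.24 with all 30 libraries to 0.52 with the GC slope as covariate, Smc5 from 0.46 to 1.61 without the libraries over 20% mitochondrial, and the bars of the 4 non-SMC elements cross 0 in all 4 fits.

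Factors and complexes near SMC5/6 were counted in the same edgeR fit of both diets, in which 2.43% of all genes rose over hours of light in chow livers. With the chow livers fitted alone no gene passed, so none of the calls on the lists was made there. Of the 4 associated factors measured, Slf1 and Slf2, which bring the complex to DNA damage, Rad18 and Eid3, 0 passed over hours of light in chow livers, with a median trend of 0.97 against -0.03 over all genes. Of 17 cohesin genes 7 rose and 0 fell, with a median of 0.80. Smc3, the cohesin ATPase, rose by 1.33 ± 0.24 (edgeR adjusted p = 0.00143), Wapl, which releases cohesin, by 0.92 ± 0.18, and Nipbl, its loader, by 0.92 ± 0.18. Of 8 condensin genes 2 rose, the ATPases Smc2 (1.57 ± 0.31) and Smc4 (1.14 ± 0.27).

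Elsewhere fewer members passed. Of 32 homologous recombination genes 2 rose, Nbn of the break-sensing complex (0.60 ± 0.16) and the helicase Wrn (0.68 ± 0.19), of 19 SUMO genes 2 rose, Ranbp2 (1.051 ± 0.228) and Topors (0.75 ± 0.17), and of 20 clock genes 1 rose, Rora (0.93 ± 0.23). Of 18 proliferation genes 0 passed. With the GC slope as covariate 0 members of any of the 7 lists passed, and the cohesin median was 0.11. The median transcript GC was 42.4% for the cohesin list and 49.7% over all genes. In antibiotics livers 0 members of any list passed.

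Of the 5 partners, Nsmce4a and, at the edge of the threshold, Nsmce3 were higher in antibiotics than in chow livers, while Smc5, Nsmce1 and Nsmce2 did not pass. Smc6 is described without a test, since its chow values chose it. Over all cycles Smc6 lay at 12.6 ± 5.34 CPM in 30 chow livers and 20.9 ± 2.93 in 29 antibiotics livers (SD), a log2 difference of 0.71 ± 0.09 (SE). Nsmce4a lay at 25.9 ± 3.76 and 33.5 ± 2.86 CPM, a difference of 0.26 ± 0.05 (adjusted p = 0.000202 in edgeR), and Nsmce3 at 16.1 ± 2.69 and 19.0 ± 2.60, a difference of 0.14 ± 0.06 (edgeR adjusted p = 0.0499). Nsmce3 did not pass in DESeq2 (adjusted p = 0.0713) and kept its call in 24 of the 59 edgeR fits with 1 library left out. The 2 diets overlapped in each of the 3 genes.

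Among all genes 33.2% passed between the diets, 14.8% higher and 18.4% lower with antibiotics, and the 2 of 5 partners are to be read against that. With the GC slope as covariate, where 21.4% of all genes passed, Smc6 differed by 0.36 ± 0.07 and Nsmce4a by 0.28 ± 0.07 (edgeR adjusted p = 0.00174), while Nsmce3, at 0.11 ± 0.07, did not pass (edgeR adjusted p = 0.267). Smc5 differed by -0.03 ± 0.19 over all libraries (edgeR adjusted p = 0.93) and by 0.55 ± 0.11 without the chow livers over 20% mitochondrial (edgeR adjusted p = 7.39e-05). Without those libraries 38% of all genes passed, and with the GC slope added Smc5 differed by 0.09 ± 0.08 (edgeR adjusted p = 0.515).

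Between the diets the neighbouring pathways went several ways, to be read beside the 14.8% of all genes that rose with antibiotics and the 18.4% that fell. Of the 4 associated factors Slf1 (0.55 ± 0.15) and Slf2 (0.29 ± 0.09) rose with antibiotics, and of 17 cohesin genes 10 rose, Stag1, Wapl and Smc3 with the smallest p, while Rec8 and Esco2 fell. Of 18 proliferation genes 13 fell, among them Mki67 (-1.77 ± 0.20, edgeR adjusted p = 7.77e-10), Cdk1 and Plk1, 3 of 8 condensin genes fell (Ncaph, Ncapd2 and Ncapg), and of 32 recombination genes 8 fell, led by Fancd2, Rad54l and Rad52, and 2 rose, Fancm and Nbn. Among the SUMO genes Ranbp2 and Pias2 rose (0.60 ± 0.11 and 0.21 ± 0.05). Of 20 clock genes Rora, Cry1 and Hlf rose and Bhlhe41 fell. With the GC slope as covariate, 1456 of all 19234 genes passed as higher and 2657 as lower. There 1 cohesin gene rose and 2 fell, and 11 proliferation genes, 3 condensin genes and 7 recombination genes passed as lower. In that fit 0 associated factors passed (Slf1 0.06 and Slf2 0.06, edgeR adjusted p = 0.788 and 0.703), 0 recombination genes passed as higher, and 1 clock gene rose and 0 fell. Summed markers of neutrophils and red blood cells were also lower in the antibiotics livers. Group medians were 5.80 to 11.1 CPM in chow and 1.07 to 2.02 with antibiotics for neutrophils, and 1042 to 1994 and 503.8 to 730.1 CPM for red blood cells. Summed T and B cell markers were not lower, with group medians of 4.67 to 5.84 CPM in chow and 5.685 to 9.845 with antibiotics. The part of these cells in the list counts was not tested.

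Genes lying beside the 6 on the chromosome were looked at because strand was not given. Gen1, a Holliday junction resolvase gene, lies head to head with Smc6 on chromosome 12 and overlaps it in the RefSeq annotation of GRCm38.p6, so reads in the overlap cannot be told apart. Gen1 was at 0.962 CPM in chow livers, with a trend of 0.18 ± 0.35 (edgeR adjusted p = 0.892). Fam189a1, which overlaps Nsmce3, was at 0.00764 CPM. Of the 10 neighbours tested, 0 passed over hours of light in chow livers. Between the diets Klf9 and Mamdc2, on either side of Smc5, rose (0.63 ± 0.13 and 0.61 ± 0.10), and Tacc2, beside Nsmce4a, fell (-0.30 ± 0.08), 3 of 10 beside 33.2% of all genes. In the fit with the GC slope Mamdc2 passed, and Klf9 and Tacc2 did not (edgeR adjusted p = 0.233 and 0.208).

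Outside the liver no member passed over hours of light in any of the other 9 tissues, in either diet where both were sequenced (edgeR). The share of all genes that passed was 0% in chow hypothalamus, colon, inguinal fat, ileum, jejunum, cecum, spleen and mammary gland and in antibiotics hypothalamus, 0.0135% in thymus and 0.00422% in antibiotics colon. Trends of Smc6 in chow mice ran from -0.48 ± 0.25 in jejunum to 0.25 ± 0.22 in inguinal fat, mammary gland aside (0.42 ± 1.22). In spleen, the tissue with the second highest Smc6 level, the trend was 0.14 ± 0.20 and in thymus 0.09 ± 0.14.

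An unadjusted p under 0.05 was reached by Nsmce1 and Nsmce3 in spleen, where 2059 of 21938 genes did so, and by Nsmce3 in thymus, where 3128 of 22289 did, all with lower levels at longer light. Nsmce1 in spleen was at 73.2, 87.7 and 89.6 CPM in the 3 libraries of LD0/24 and at 45.7, 55.7 and 61.5 in those of LD24/0, which do not overlap, with a trend of -0.79 ± 0.19 (edgeR adjusted p = 0.366). Nsmce3 had trends of -0.51 ± 0.21 in spleen and -0.43 ± 0.15 in thymus (edgeR adjusted p = 0.479 and 0.26). The trend of Nsmce1 in thymus was 0.26 ± 0.18, opposite in sign to spleen. The GC slope of the libraries moved as well. In spleen it lay between 0.117 and 0.143 in LD0/24 and between -0.0571 and -0.0371 in LD24/0. In thymus it lay between -0.154 and -0.0157 in LD0/24 and between 0.0184 and 0.067 in LD24/0. The part of these trends that light and slope share cannot be told apart. Spleen LD12/12 had a median mitochondrial share of 50.9%. DESeq2 called 1 member in spleen, Nsmce1, and 0 in the other 8 tissues, and limma-voom called 0 in all 9, with 3 members in spleen, 2 in mammary gland and 1 in thymus under 0.05 unadjusted.

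Between the diets, 1 member passed in hypothalamus and 0 in colon in edgeR, against 14.2% of all genes in hypothalamus (5.8% higher and 8.4% lower with antibiotics) and 5.36% in colon (2.26% higher and 3.11% lower). Nsmce2 in hypothalamus lay between 32.8 and 50.04 CPM with a median of 43.0 over 15 chow libraries and between 32.4 and 44.1 with a median of 38.0 over 15 antibiotics libraries, a difference of -0.20 ± 0.06 (edgeR adjusted p = 0.0186). Smc6 there differed by -0.16 ± 0.06 (edgeR adjusted p = 0.0523), opposite in sign to liver. With the GC slope as covariate, where 1.23% of all hypothalamus genes passed, 0 members passed. In colon 0 members had an unadjusted p under 0.05 in edgeR, DESeq2 or limma-voom, and 1 antibiotics colon library, LD8/16 replicate 1, held 8919740 counts and 0 for all 6 genes.

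By tissue, Smc6 was highest in thymus (128 ± 14.3 CPM, SD, n = 15) and spleen (126 ± 22.3, n = 15), which differed by less than their spread, and lowest in chow liver. Hypothalamus followed at 54.4 ± 6.46, then inguinal fat at 46.2 ± 12.0, mammary gland at 43.5 ± 33.6, cecum at 39.3 ± 12.8, colon at 39.3 ± 8.25, jejunum at 34.7 ± 11.9 and ileum at 32.3 ± 8.31 CPM. Of the steps between neighbours in this order, spleen to hypothalamus and ileum to liver were larger than the SD of both tissues, and the other 7 were not.

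The partners shared the low place of liver, which had the lowest mean for all 6 genes, although the gap to the next tissue was larger than both SDs for Smc6 and Nsmce2 alone. Smc5 was at 111 ± 14.3 CPM in thymus and 42.6 ± 10.6 in spleen, so the pair of ATPases did not share the high spleen level. Nsmce1 and Nsmce4a were highest in thymus (84.6 ± 13.0 and 133 ± 10.6 CPM) and next in spleen (59.2 ± 15.3 and 97.0 ± 23.6). Nsmce2 was highest in hypothalamus (42.5 ± 4.70 CPM) and thymus (38.7 ± 3.66), and Nsmce3 in colon (43.1 ± 6.55) and thymus (42.6 ± 7.53), and neither pair differed by more than both SDs. Mammary gland values were the least certain, with a median mitochondrial share of 86.4% and each of the 6 genes at 0 in at least 1 of its 15 libraries.

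**Figure D4:**
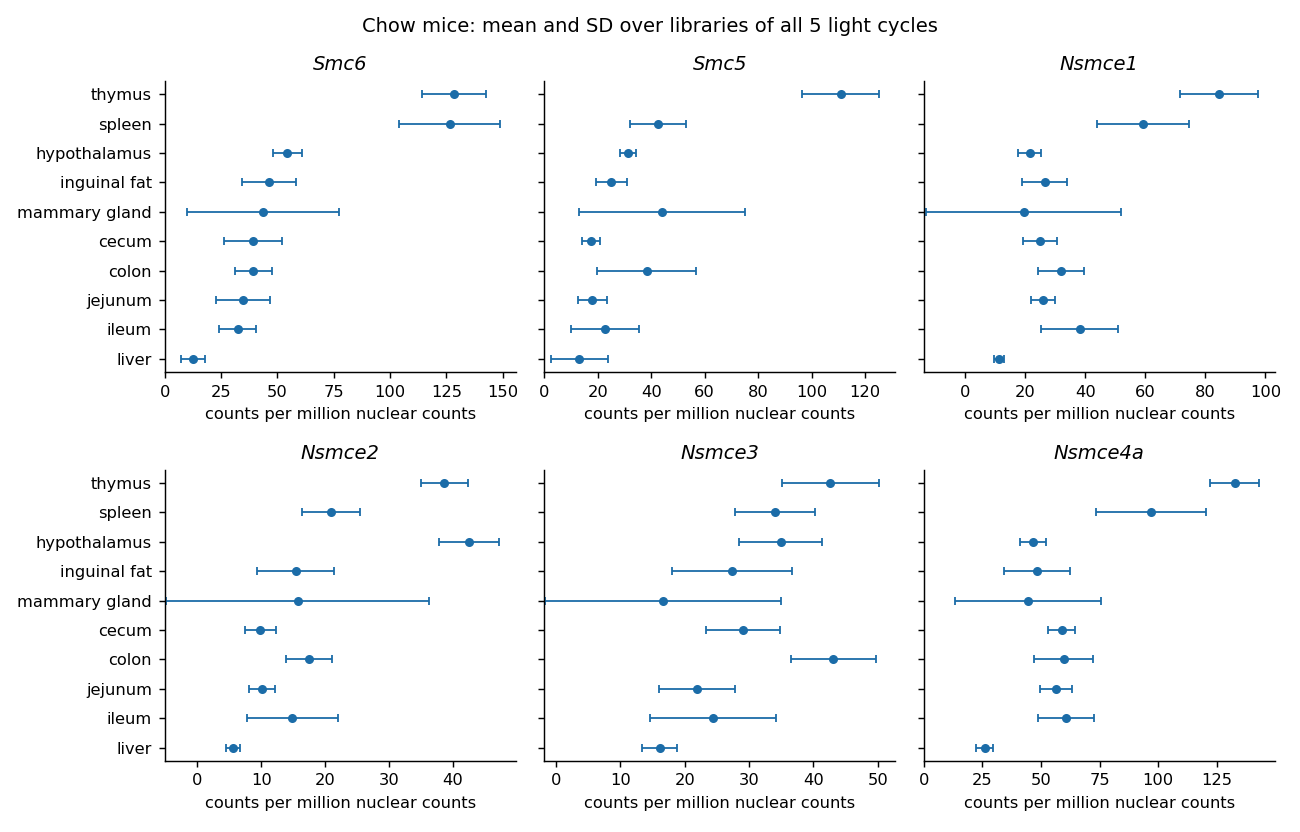
Level of each SMC5/6 gene in 10 tissues of chow mice (mean CPM of nuclear genes, bars are SD over the libraries of all 5 light cycles, 30 in liver and 15 elsewhere). Thymus is highest, or differs from the highest by no more than the larger SD, for all 6 genes, and liver has the lowest mean for all 6.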

How the data were processed

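Per the submitters' processing notes, reads were handled with HISAT2 2.1.0, SAMtools 1.10 and StringTie 2.2.1 against GRCm39, and the labels name a SMARTER mRNA kit. The authors deposited 1 table of estimated counts per gene, all whole numbers, so no rounding was needed. For strand, sex, sampling hour and batches no information was at hand. Of 46333 rows, 2 named no gene (at most 0.114% of a library) and were left out. Levels are counts divided by the nuclear total of the library. Each tissue was fitted with edgeR 4.0.16 in R 4.3.3 (filterByExpr, TMM, robust quasi-likelihood, 1 mean per diet and cycle), adjusted over all genes tested, threshold 0.05. Alternatives used DESeq2 1.42.0, limma 3.58.1 and the settings of the closing section. On counts simulated for the liver trend the fit was tested before use. The simulated counts had the same dispersion for all genes and no GC slope or mitochondrial difference between libraries. That test therefore cannot show how the fit handles such differences. Gene names were matched to GENCODE vM21 and RefSeq (GRCm38.p6) for chromosomes, neighbours, transcript GC and sequence, with no coordinates taken. At least 95.7% of the genes at 1 CPM had a GC value in every tissue.

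The 6 genes, the lists of related genes and the tests were chosen with earlier results of these data known. The genes named are the 6, up to 3 members per list and direction with the smallest p, the 10 genes most correlated with Smc6 and the measured neighbours; some list members are not reported here. Whether each library of a group is a mouse of its own is not stated, and every p-value refers to variation among libraries, which may be technical.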

Additional observations from a re-analysis of the deposited data

Results flagged for a closer look

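In 60 groups of 5 or 6 liver libraries, 1 for each gene, diet and cycle, the highest or lowest library was tested for standing apart from the rest (Dixon's criterion, under which chance gives about 1 in 20), and 10 did. Smc5 was high in chow LD8/16 replicate 3 (33.2 CPM, the others at most 9.59), LD12/12 replicate 2 (44.4, the others at most 14.3) and LD24/0 replicate 5 (34.0, the others at most 15.3), all with 40.9 to 62.6% mitochondrial counts. It was low in chow LD16/8 replicate 6 (2.77 CPM, the others at least 10.9), the library with the steepest GC slope, 0.624. The same LD24/0 replicate 5 was low for Smc6 (11.5 CPM, the others at least 19.0) and for Nsmce2 (3.499, the others at least 5.56). Chow LD0/24 replicate 4, with 58.3% mitochondrial counts, was high for Nsmce3 (23.7 CPM, the others at most 16.7). Chow LD24/0 replicate 1, with 5.8% mitochondrial counts and a GC slope of -0.0513, was high for Nsmce3 (22.0 CPM, the others at most 17.0) and Nsmce4a (37.7, the others at most 26.8). Antibiotics LD24/0 replicate 6 was high for Smc6 (28.2 CPM, the others at most 20.1). The part of the mitochondrial share in the Smc5 values was not tested.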

How the results depend on the processing

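The number of partners passing over hours of light in chow livers, and for the difference between diets, went from 0 to 1 (Smc5) with the mitochondrial share as covariate or without libraries over 20% mitochondrial. Members passing between diets in hypothalamus went from 1 to 2 (DESeq2, values divided by 4), 4 (mitochondrial share, where 34.8% of all genes passed) or 0 (GC slope, 1.23%), and ran from 0 to 2 when single libraries were left out, with 0 without chow LD8/16 replicate 1, LD12/12 replicate 1, LD16/8 replicate 2 or LD24/0 replicate 2. In spleen DESeq2 called 1. Partners following Smc6 across chow libraries, counted by Pearson's r, went from 1 to 0 with residuals on GC slope or without slopes over 0.2 (there Nsmce2 passed by rho alone, 0.572, adjusted permutation p = 0.0324), and in antibiotics livers to 1 around cycle means. Both GC settings kept the chow libraries over 20% mitochondrial. The cause was not tested. The signs of small values turned. Chow trends reached -0.18 (Smc5, GC covariate and without slopes over 0.2), 0.20 (Nsmce1, without slopes over 0.2), -0.0557, -0.14 and -0.22 (Nsmce2; mitochondrial covariate, GC covariate, and GC covariate without high-mitochondrial libraries), -0.0182 and -0.0123 (Nsmce3; GC covariate, without slopes over 0.2) and -0.0133, -0.0536, -0.0197, -0.0081, -0.0513 and -0.0464 (Nsmce4a; DESeq2, mitochondrial covariate, chow alone, all 60 libraries, without high-mitochondrial libraries, and that with GC covariate). Antibiotics trends reached 0.0044, 0.0154, 0.0154, 0.23 and 0.0166 (Smc5; no filter, replicate block, GC covariate, all 60 libraries, GC covariate without high-mitochondrial libraries) and 0.0024 and 0.0399 (Nsmce2; limma-voom, all 60 libraries). Diet differences reached 0.32, 0.0012, 0.0034, 0.47, 0.55 and 0.0913 (Smc5; limma-voom, no filter, replicate block, mitochondrial covariate, without high-mitochondrial libraries, and that with GC covariate) and -0.0139, -0.0459, -0.0456 and -0.0651 (Nsmce1; limma-voom, then the last 3 of these). Leaving out single liver libraries gave ranges across 0 for Nsmce1 (-0.0118 to 0.0321) and Smc5 (-0.0617 to 0.112) between diets, for Nsmce2 (-0.049 to 0.126), Nsmce3 (-0.0312 to 0.0795) and Nsmce4a (-0.0862 to 0.0617) over light in chow, and for Nsmce2 (-0.13 to 0.0562) and Smc5 (-0.0581 to 0.0495) over light with antibiotics. Smc6 stayed between 1.14 and 1.34 in chow and between -0.28 and -0.15 with antibiotics, and Smc5 in chow between 0.21 and 1.04. Nsmce3 between diets lost its call in 9 settings, the replicate block among them (adjusted p = 0.0592), and kept it in 24 of the 59 fits with 1 library left out. Same-numbered liver libraries did not deviate together on average (mean correlation -0.00537, against 0.00428 for different numbers). In jejunum the means were 0.0958 and -0.0479, and in spleen 0.0957 and -0.0469. The check was made within each tissue, so it cannot show whether numbers pair libraries across tissues or whether some share a batch. With the replicate block 0 partners passed in chow livers, and the single gene called for the trend difference between diets, Smc6, was no longer called. Between diets in liver, 3 members passed in the main fit, where 33.2% of all genes passed. Smc6, whose chow values chose it, is among these 3, and the other 2 are partners. With single libraries left out the count, Smc6 included, ran from 2 to 4. Beside the loss of Nsmce3, Smc5 was gained there without the libraries over 20% mitochondrial. No other count of members called changed, apart from those given here.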

Other observations

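In antibiotics liver LD0/24 replicate 1, left out for its 0 counts on chromosomes 18, 19 and X, Smc5, which lies on chromosome 19, was at 0 and Smc6, on chromosome 12, at 27.0 CPM. Within the antibiotics livers Smc6 ran with another library measure, the slope of log2 deviations on transcript length (Pearson's r = 0.576, Spearman's rho = 0.534 over 29 libraries, permutation p = 0.00114 and 0.00326, adjusted 0.00798 and 0.0228 over 14 relations), and r was 0.611 without the 2 most extreme libraries and 0.52 around the cycle means. In chow livers that r was 0.239. Neutrophil marker genes summed to between 0.413 and 5.48 CPM over the antibiotics livers and between 3.93 and 513 CPM over the chow livers, and the sum had r = -0.188 with Smc6 in chow livers.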
